A study of Mus musculus with 12 samples.

Results

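Cyclins, the cyclin-dependent kinases (CDKs) that they activate and the inhibitor proteins that block these kinases form the engine of the cell division cycle. The gene table of the study was searched for protein-coding genes whose symbols name a cyclin (Ccn and a letter, with or without a number), a CDK (Cdk and a number) or a CDK inhibitor of the Cdkn1 and Cdkn2 families. The search found 50 genes among 55862, of which 25 were cyclins, 18 were kinases and 7 were inhibitors. Expression was measured by RNA-seq in mouse brain cells of the C57BL/6 strain, in 4 groups of 3 samples each. ASTs were primary astrocytes grown from the cerebral cortex of newborn pups as an attached monolayer with serum, taken at day 0 of the sphere culture and used as the negative control. A-iSCs were the cells obtained from ASTs after 5 days of culture as spheres over agarose. P56-NPCs and P0-NPCs, positive controls that the study names neural precursor cells, were harvested from C57BL/6J brains. They came from the subependymal zone of adults and from the hippocampus of newborns respectively. The NPC groups were suspensions of dissociated tissue, and no sort for precursor cells was described. The study's methods speak of 3 independent experiments for its tests in general, but the labels do not tie the 3 samples of a group to separate cultures or animals, so p-values measure the spread between these samples, which may be technical.

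In a dividing cell, D-type cyclins bind Cdk4 and Cdk6 in early G1 in response to growth signals, and these kinases phosphorylate the retinoblastoma protein so that E2F factors are set free. Cyclin E with Cdk2 then drives entry into S phase, cyclin A with Cdk2 and Cdk1 carries the cell through S and G2, and cyclin B with Cdk1 drives mitosis. Inhibitors of the Ink4 family bind Cdk4 and Cdk6, and inhibitors of the Cip/Kip family bind cyclin and CDK complexes more broadly. Cells can leave the cycle for a reversible rest or for permanent arrest, and adult neural stem cells are known for long periods of rest. A further set of cyclins and CDKs, which carry the same names, acts in transcription and RNA processing or in postmitotic neurons rather than in the cycle.

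Levels are given in FPKM, fragments scaled to gene length and library size, so that genes of different length can be compared. The libraries held 17077780 to 24452419 fragments assigned to genes, and the floor of detection was set at 3 fragments, or 0.103 to 0.187 FPKM where a gene has 1 kilobase, a limit on counting error alone. A gene was called higher or lower in a comparison of 2 groups where limma on log2(FPKM + 1), run over all genes whose mean reached 1 FPKM in either group, gave an adjusted p under 0.05. Fold changes are on this log2(FPKM + 1) scale unless a ratio of mean FPKM is named, and the scale understates the change of low genes. Mitochondrial genes took 16.5% to 17.6% of the fragments in P56-NPCs and 2.94% to 7.03% in the other groups. The marker genes of other cell types also moved with the groups. The summed FPKM of 6 fibroblast and pericyte markers was 1881 to 2267 in ASTs, of which Acta2 made up most, against 31.8 to 65.5 in A-iSCs, and that of 6 microglial markers was 21.2 to 26.4 in ASTs against 201 to 265 in A-iSCs. The 6 astrocyte markers all had a mean of at least 1 FPKM in ASTs but summed to 126 to 146 FPKM there, against 900 to 1974 in A-iSCs. In P56-NPCs, 5 oligodendrocyte markers summed to 8430 to 9633 FPKM and were at most 75.8 elsewhere, and in P0-NPCs 6 neuronal markers summed to 748 to 901 FPKM and were at most 222 elsewhere. In bulk RNA, a smaller number of cells of a type and less RNA per cell cannot be told apart, and the part of these markers in the differences given here was not tested.

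**Figure D1:**
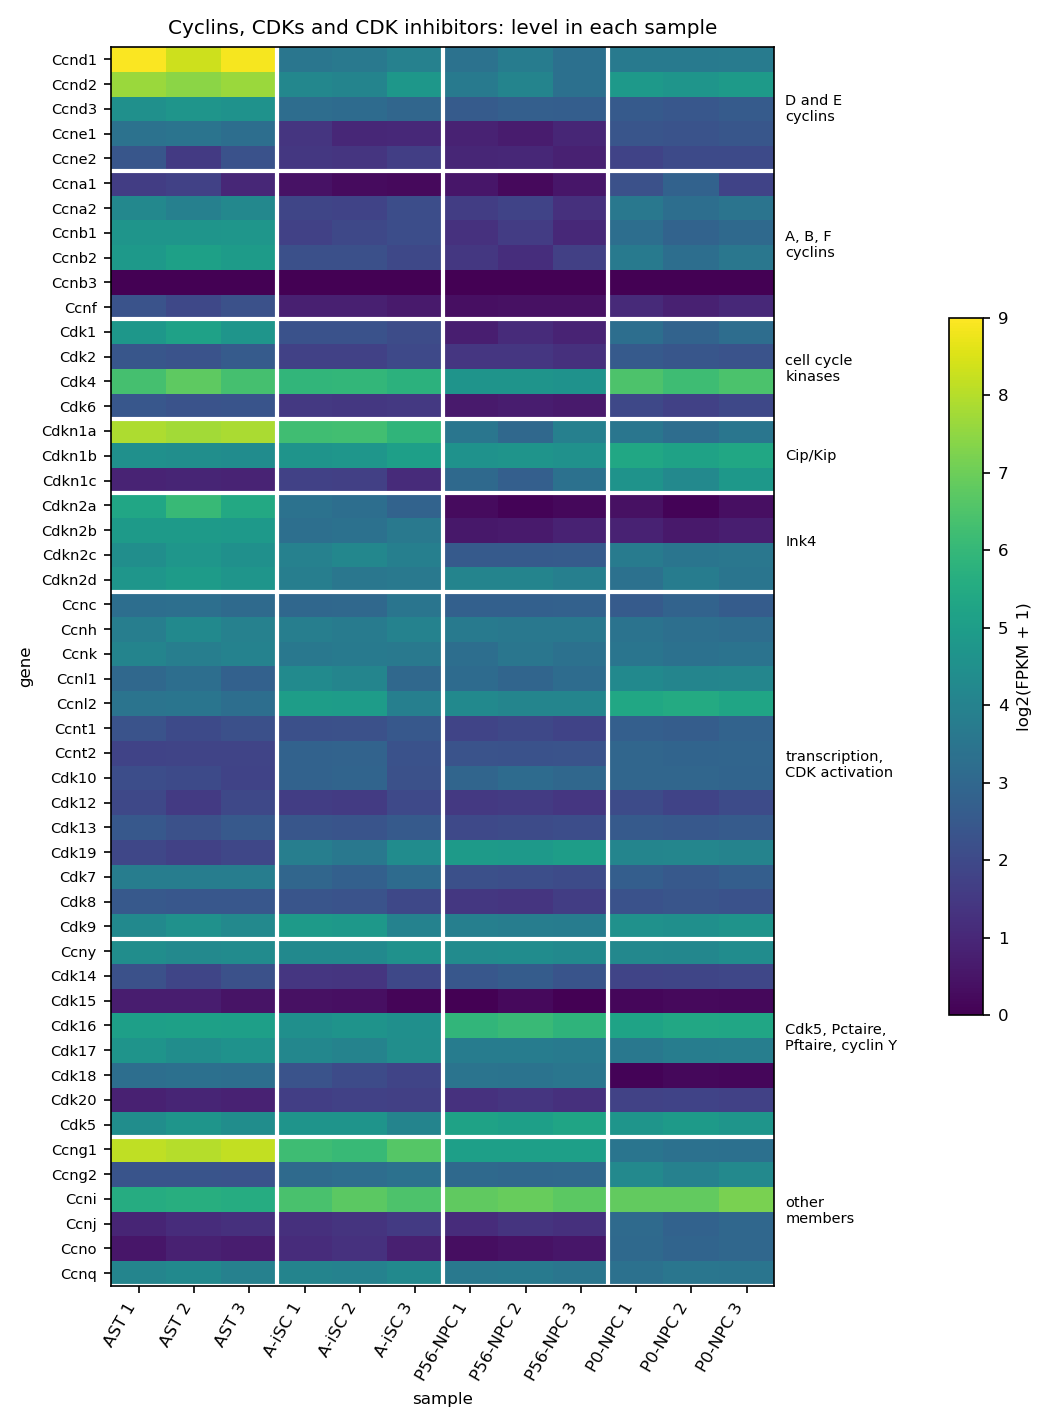
Level of each of the 50 genes (rows, grouped by role) in each of the 12 samples (columns) as log2(FPKM + 1), from dark (0) to yellow (9 or above). Of the 14 detected cell cycle cyclins and kinases, 13 have their highest mean in ASTs, while Ccna1 has it in P0-NPCs. The P0-NPC samples of Ccne2, Cdk2 and Cdk4 and the A-iSC samples of Ccne2 overlap with ASTs. Ccnb3 is at 0 in all 12.

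Of the 50 genes, 49 were above 0 in at least 1 sample, and Ccnb3 was listed at 0 in all 12. Skp2, a widely expressed gene of the cell cycle that is no cyclin or CDK, was also listed at 0 in all 12, so a listed 0 is not read here as absence of the transcript. ASTs had the highest mean level of 27 of the 49 genes, P0-NPCs of 14, P56-NPCs of 6 and A-iSCs of 2. P56-NPCs had the lowest mean of 25 genes. No such count was made over all genes, so these splits are not read as particular to these genes. Cdk15 stayed below the filter in every comparison, with at most 0.649 FPKM in any sample.

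The comparison of A-iSCs with ASTs asks how the cells of the spheres differ from the monolayer they came from. Of the 48 genes tested, 24 were lower and 8 were higher in A-iSCs. Over all genes tested the shares were 29.6% lower and 25.2% higher, whereas among these genes they were 50% and 16.7%. The median log2 fold change was -0.43 over these genes and -0.06 over all genes tested. All 14 tested genes of the D, E, A, B and F cyclins and of the cell cycle kinases Cdk1, Cdk2, Cdk4 and Cdk6 had a lower mean in A-iSCs, and 13 of the 14 passed the test. The 4 Ink4 inhibitors and the Cip/Kip inhibitor Cdkn1a fell as well, while Cdkn1c rose by 0.61 and Cdkn1b (0.38) was not called. With the values scaled by library size alone, without the scaling between samples that the deposited values carry, 12 genes were higher and 20 lower. Over all 14297 genes tested under library-size scaling, 4563 were higher and 2989 lower.

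Ccnd1, which encodes cyclin D1, had the largest difference of the 48 genes tested. Its level was 488, 321 and 474 FPKM in ASTs against 10.5, 11.6 and 14.7 FPKM in A-iSCs. The groups were far apart, and the mean fell from 428 ± 92.5 (SD, n = 3) to 12.3 ± 2.13 FPKM (SD, n = 3), a ratio of 34.9. The log2 fold change was -5.00 with a standard error of 0.20 (limma adjusted p = 5.14e-06), and only 10 of the 14087 genes tested had a more negative one. Ccnd1 lies on the reverse strand of chr7:144929931-144939925 (GRCm38). In P56-NPCs it was at 9.60, 12.6 and 9.10 FPKM and in P0-NPCs at 11.97, 11.8 and 12.4 FPKM, so the A-iSC samples overlapped with those of both NPC groups. The difference of A-iSCs from P0-NPCs was 0.01 on the log2 scale, with a 95% interval of -0.30 to 0.32, and that from P56-NPCs was 0.22, with an interval of -0.17 to 0.60.

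Ccnd2, the D cyclin that neural progenitors are known to use, was at 201, 172 and 199 FPKM in ASTs against 16.9, 15.8 and 26.4 FPKM in A-iSCs. It fell by 3.24 on the log2 scale (SE 0.20, limma adjusted p = 1.93e-05), and the mean ratio was 9.67. Its level was 11.66, 15.6 and 8.93 FPKM in P56-NPCs and 27.5, 25.0 and 29.3 FPKM in P0-NPCs. The order of the means was AST, P0-NPC, A-iSC and P56-NPC, in which A-iSCs did not pass the test against either NPC group (limma adjusted p = 0.0573 against P0-NPCs and 0.0515 against P56-NPCs). Without A-iSC replicate 3, which had the highest level of its group, Ccnd2 was lower in A-iSCs than in P0-NPCs by 0.70 on the log2 scale (limma adjusted p = 0.000334). Without P56-NPC replicate 2 it was higher in A-iSCs than in P56-NPCs, with a log2 fold change of 0.85 (limma adjusted p = 0.0333). In limma-voom on the recovered fragments it passed both tests, at -0.50 against P0-NPCs (adjusted p = 0.0456) and 0.71 against P56-NPCs (adjusted p = 0.0403).

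Ccnd3, the last of the D cyclins, was at 21.8, 25.1 and 22.8 FPKM in ASTs against 8.41, 7.86 and 6.86 FPKM in A-iSCs. Its fall of 1.48 (SE 0.12, limma adjusted p = 5.55e-05) was smaller than those of the other D cyclins, and every A-iSC sample lay below every AST sample. Ccnd3 was at 4.99, 5.67 and 5.40 FPKM in P56-NPCs and 4.87, 4.38 and 5.02 FPKM in P0-NPCs, below all A-iSC samples. The make-up of the family differed accordingly. Ccnd1 made up 66.2% ± 3.75 (SD, n = 3) of the summed FPKM of the D cyclins in ASTs, 30.9% ± 1.77 (SD, n = 3) in A-iSCs, 37.5% ± 1.18 (SD, n = 3) in P56-NPCs and 27.4% ± 1.19 (SD, n = 3) in P0-NPCs. In A-iSCs and both NPC groups Ccnd2 had the largest mean share, with 49.1%, 42.9% and 61.8% of the sum, but in P56-NPC replicate 3 it was at 38.1% against 38.9% for Ccnd1. The share of Ccnd1 was lower in every A-iSC sample than in every AST sample, and the exact two-sided permutation test gave p = 0.1 for the difference of -35.3 percentage points, the smallest p that 3 samples against 3 allow (0.112 after Benjamini-Hochberg adjustment over 18 tests). The summed FPKM of the 3 genes was 519 to 711 in ASTs and 35.3 to 47.9 in A-iSCs.

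**Figure D2:**
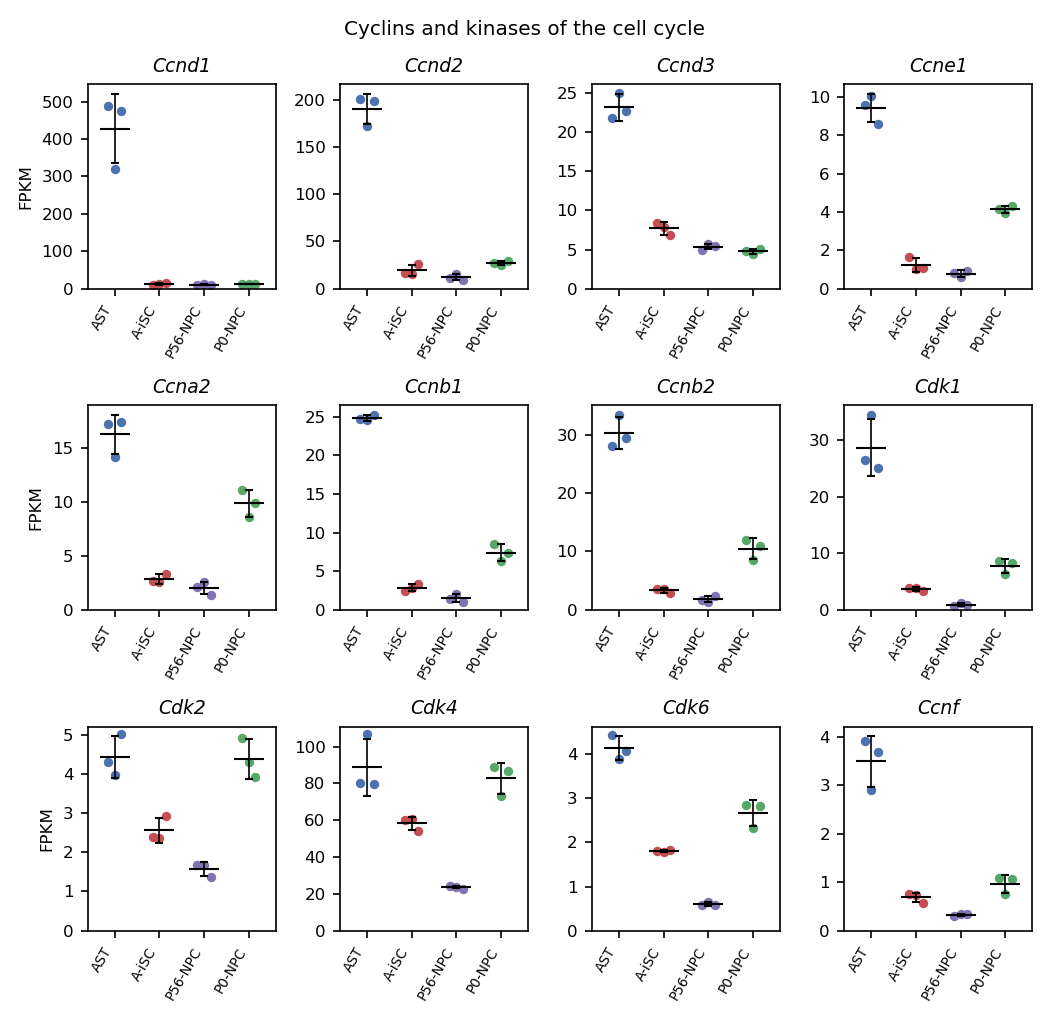
FPKM of 12 cell cycle cyclins and kinases in each sample (points), with the group mean (horizontal bar) and SD (whiskers, n = 3), each panel on its own linear axis from 0. Ccnd1, Ccnd2 and Ccnd3 drop from ASTs to the other 3 groups, whereas Cdk2 and Cdk4 in P0-NPCs overlap with ASTs.

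The E cyclins, which open S phase, behaved unevenly. Ccne1 was at 9.59, 10.1 and 8.60 FPKM in ASTs against 1.64, 1.03 and 1.05 FPKM in A-iSCs, and it fell by 2.23 on the log2 scale (SE 0.14, limma adjusted p = 1.93e-05). In the NPCs it was at 0.822, 0.609 and 0.935 FPKM in P56-NPCs and 4.15, 3.95 and 4.32 FPKM in P0-NPCs, so that P0-NPCs lay between ASTs and the other groups. Ccne2 was at 4.25, 1.86 and 3.85 FPKM in ASTs against 1.72, 1.65 and 2.15 FPKM in A-iSCs. The groups overlapped at AST replicate 2, and the log2 fold change of -0.56 did not pass the test (95% interval -1.11 to -0.02, limma adjusted p = 0.076). Without that replicate it was -0.84 (limma adjusted p = 0.00378). With all samples kept, Ccne2 was called lower with all 4 groups in the model (limma adjusted p = 0.0211). The same held for the replicate block (limma adjusted p = 0.029) and upper-quartile scaling (limma adjusted p = 0.0448). Ccne2 was at 0.940, 1.02 and 0.764 FPKM in P56-NPCs and 2.48, 3.06 and 3.06 FPKM in P0-NPCs, and the P0-NPC samples lay within the AST range.

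The cyclins of S phase, G2 and mitosis were lower in A-iSCs in all 5 tested genes. Ccnb1 and Ccnb2, the mitotic cyclins, were at 24.7, 24.6 and 25.3 FPKM and at 28.1, 33.4 and 29.5 FPKM in ASTs. In A-iSCs they were at 2.36, 2.83 and 3.32 FPKM and at 3.597, 3.54 and 2.87 FPKM. Every A-iSC sample lay far below every AST sample, with a fall of 2.76 for Ccnb1 (limma adjusted p = 6.01e-06) and of 2.85 for Ccnb2 (limma adjusted p = 5.89e-06). Ccna2, the cyclin A of somatic cells, was at 17.3, 14.2 and 17.4 FPKM in ASTs against 2.66, 2.54 and 3.35 FPKM in A-iSCs, a fall of 2.17 (limma adjusted p = 1.84e-05). Ccnf, which encodes a subunit of a ubiquitin ligase rather than a CDK activator, was at 3.91, 2.90 and 3.69 FPKM in ASTs against 0.751, 0.733 and 0.579 FPKM in A-iSCs, a fall of 1.41 (limma adjusted p = 0.000102). Ccna1, the cyclin A known from male germ cells, was low, at 2.08, 2.36 and 0.998 FPKM in ASTs against 0.351, 0.206 and 0.163 FPKM in A-iSCs, where it rested on 8 to 13 fragments per library. The fall of Ccna1 was 1.15 on the log2 scale (limma adjusted p = 0.00271) and 2.88 in limma-voom on the recovered fragments, and that of Ccnf was 2.35 there.

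These cyclins also differed between the NPC groups. Ccnb1 was at 1.42, 2.01 and 1.05 FPKM in P56-NPCs and 8.52, 6.33 and 7.33 FPKM in P0-NPCs. Ccnb2 was at 1.73, 1.26 and 2.30 FPKM in P56-NPCs and 11.96, 8.503 and 10.9 FPKM in P0-NPCs. Ccna2 was at 2.12, 2.53 and 1.40 FPKM in P56-NPCs and 11.1, 8.61 and 9.94 FPKM in P0-NPCs. For these 3 genes the P0-NPC samples lay between the AST and A-iSC samples, and all P56-NPC samples were below all A-iSC samples. Ccnf was at 0.295, 0.335 and 0.335 FPKM in P56-NPCs and 1.09, 0.757 and 1.07 FPKM in P0-NPCs. Ccna1 alone was highest in P0-NPCs, with 3.72, 6.20 and 2.49 FPKM, and was at 0.471, 0.170 and 0.463 FPKM in P56-NPCs.

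Among genes of late cell cycle stages, the cell cycle homology region (TTTGAA or TTTAAA) and the CCAAT box are known promoter elements. RefSeq promoter windows were found for 40 of the 50 genes, and the 250 bases before the annotated start were searched on both strands for these letters, each motif on its own, so that matches may overlap. A window with TTTGAA or TTTAAA and with 2 or more CCAAT was found for 6 of the 40 genes, namely Ccnb1, Ccnb2, Ccnf, Cdk1, Cdk16 and Cdkn1b, or 13.3% of 45 windows. Of all 32851 windows, 2.36% held both. CCAAT, with or without another motif, was in 33.8% of all windows and TTTGAA or TTTAAA in 25.2%. The sequences of Ccnb2 (chr9:70421555-70421804), Cdk1 (chr10:69352939-69353162) and Ccnf (chr17:24251485-24251659), all on the reverse strand of GRCm38.p6, are shown because these 3 genes held both elements and were lower in A-iSCs and in both NPC groups than in ASTs. Ccnf was chosen after its values were seen. Bases that lie in an annotated first exon were left off. The bases that remain of Ccnb1 held CCAAT once and no TTTAAA, so it is not shown, while those of Cdk1 and Ccnf still held both elements. Capitals mark TTTGAA, and CCAAT or its reverse ATTGG, 5′ to 3′.
Ccnb2: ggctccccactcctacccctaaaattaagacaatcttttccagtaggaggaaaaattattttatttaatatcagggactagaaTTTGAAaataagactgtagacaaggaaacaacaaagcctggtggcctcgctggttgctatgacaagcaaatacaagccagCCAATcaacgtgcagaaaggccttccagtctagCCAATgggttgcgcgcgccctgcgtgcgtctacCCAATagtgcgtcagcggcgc
Cdk1: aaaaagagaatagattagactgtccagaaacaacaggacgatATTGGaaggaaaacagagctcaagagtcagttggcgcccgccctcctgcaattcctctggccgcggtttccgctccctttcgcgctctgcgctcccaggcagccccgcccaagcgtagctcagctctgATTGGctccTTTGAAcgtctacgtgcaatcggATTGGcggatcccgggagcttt
Ccnf: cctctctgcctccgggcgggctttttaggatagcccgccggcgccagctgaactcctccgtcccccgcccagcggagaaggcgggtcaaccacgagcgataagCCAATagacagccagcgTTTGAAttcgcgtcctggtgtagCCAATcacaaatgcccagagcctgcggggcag
Ccnb2 held CCAAT 3 times on the forward strand, Cdk1 held it 3 times on the reverse strand, and Ccnf held TTTGAA between 2 copies of CCAAT in the bases shown. A match in letters is a description of these windows only.

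All 4 kinases of the cell cycle were lower in A-iSCs, but by unequal amounts. Cdk1, the mitotic kinase, was at 26.4, 34.4 and 25.0 FPKM in ASTs against 3.80, 3.79 and 3.27 FPKM in A-iSCs, a fall of 2.67 on the log2 scale (SE 0.14, limma adjusted p = 1.1e-05). Cdk6 was at 4.43, 3.90 and 4.08 FPKM in ASTs against 1.81, 1.77 and 1.83 FPKM in A-iSCs, a fall of 0.87 (limma adjusted p = 0.000333). Cdk2, at 4.30, 3.96 and 5.02 FPKM in ASTs against 2.38, 2.37 and 2.92 FPKM in A-iSCs, fell by 0.61 (limma adjusted p = 0.00502). No sample of A-iSCs reached the AST range in any of these genes. Cdk4, the most abundant of the 4, was at 80.1, 107 and 79.7 FPKM in ASTs against 60.1, 60.6 and 54.3 FPKM in A-iSCs. It fell by 0.59 (limma adjusted p = 0.0143), and with scaling by library size alone the fold change was -0.37 and was not called (limma adjusted p = 0.0589). Cdk1 was at 0.701, 1.14 and 0.861 FPKM in P56-NPCs and 8.54, 6.33 and 8.19 FPKM in P0-NPCs. Cdk2 was at 1.67, 1.68 and 1.37 FPKM in P56-NPCs and 4.92, 4.30 and 3.92 FPKM in P0-NPCs. Cdk4 was at 24.2, 24.0 and 22.9 FPKM in P56-NPCs and 88.7, 73.1 and 86.5 FPKM in P0-NPCs. All P56-NPC samples of these 3 genes were below all A-iSC samples, and the P0-NPC samples of Cdk2 and Cdk4 overlapped with ASTs. Cdk6 was at 0.581, 0.659 and 0.577 FPKM in P56-NPCs and 2.85, 2.33 and 2.82 FPKM in P0-NPCs. Cdk4 made up 70.4% of the summed FPKM of the 4 kinases in ASTs and 87.9% in A-iSCs, while Cdk1 made up 22.7% and 5.45%.

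The Cip/Kip inhibitors differed in direction. Cdkn1a encodes p21, a target of p53 that arrests the cycle. ASTs held 238, 217 and 232 FPKM of it and A-iSCs 75.2, 75.7 and 57.9 FPKM, with 10.7, 7.17 and 14.1 FPKM in P56-NPCs and 10.4, 8.30 and 10.6 FPKM in P0-NPCs. The AST, A-iSC and NPC samples thus formed 3 levels without overlap, with A-iSCs in the middle. Cdkn1a fell by 1.71 from ASTs to A-iSCs (SE 0.15, limma adjusted p = 8.69e-05), and in A-iSCs it was still 6.54 times its mean FPKM in P56-NPCs and 7.12 times that in P0-NPCs. The NPC groups did not pass the test against each other (0.08, 95% interval -0.42 to 0.57).

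Cdkn1b, which encodes p27, an inhibitor of resting cells, was at 22.0, 20.7 and 19.7 FPKM in ASTs against 24.2, 25.8 and 32.5 FPKM in A-iSCs. No sample overlapped, but the log2 fold change of 0.38 did not pass the test (95% interval 0.05 to 0.70, limma adjusted p = 0.0512). It passed without A-iSC replicate 1 (0.46, limma adjusted p = 0.0466) and with scaling by library size alone (0.59, limma adjusted p = 0.0107). It also passed with all 4 groups in the model (limma adjusted p = 0.0101). Cdkn1b was at 23.2, 24.3 and 22.5 FPKM in P56-NPCs and 40.3, 35.1 and 40.01 FPKM in P0-NPCs, so P0-NPCs had the highest levels. Cdkn1c, which encodes p57 and is an imprinted gene, was at 0.848, 0.895 and 0.871 FPKM in ASTs against 2.36, 2.25 and 1.15 FPKM in A-iSCs. It rose by a log2 fold change of 0.61 (SE 0.18, limma adjusted p = 0.0246). This call was lost when A-iSC replicate 1 or 2 or any AST replicate was left out, with fold changes of 0.50 to 0.62 and adjusted p-values from limma of 0.0601 to 0.0864, and without the filter (limma adjusted p = 0.0657), and it was kept without A-iSC replicate 3, the lowest of its group. Cdkn1c was at 7.43, 5.62 and 9.35 FPKM in P56-NPCs and 23.5, 18.04 and 26.9 FPKM in P0-NPCs, so all 4 groups were separated. Cdkn1a made up 91.3% of the summed FPKM of the family in ASTs, 70.0% in A-iSCs, 25.3% in P56-NPCs and 13.7% in P0-NPCs.

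**Figure D3:**
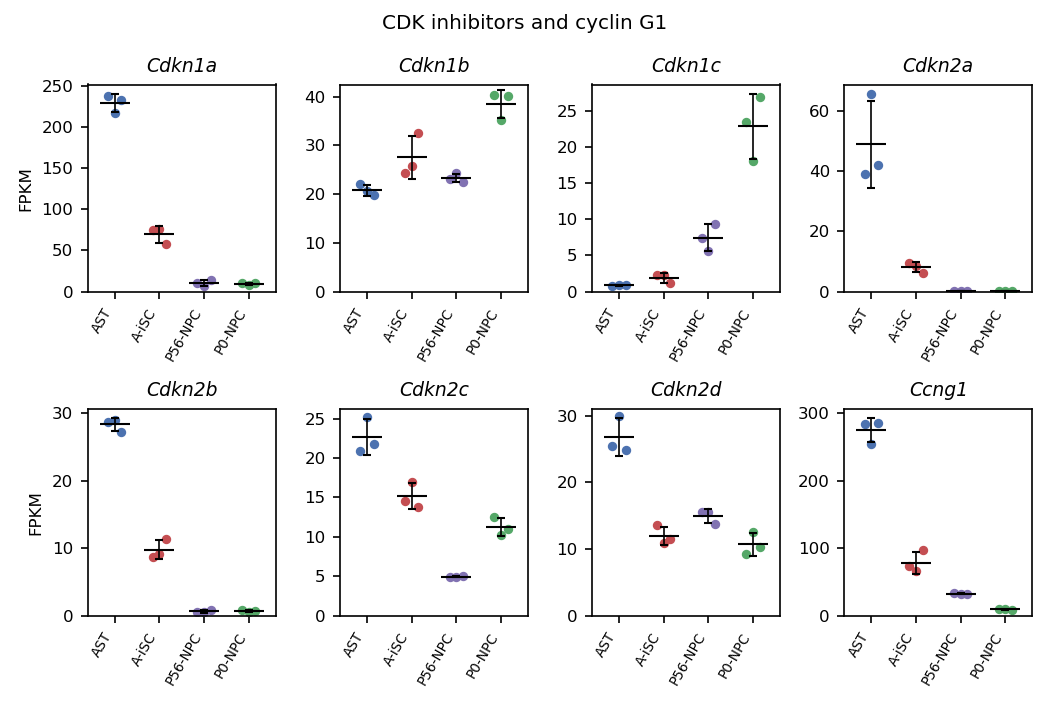
FPKM of the 7 CDK inhibitors and of Ccng1 in each sample (points), with the group mean (horizontal bar) and SD (whiskers, n = 3), each panel on its own linear axis from 0. Cdkn1a, Cdkn2a, Cdkn2b and Ccng1 step down from ASTs to A-iSCs and again to the NPCs, whereas Cdkn1c steps up.

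All 4 Ink4 inhibitors were lower in A-iSCs than in ASTs. Cdkn2a and Cdkn2b lie next to each other on the reverse strand of chromosome 4 (chr4:89274471-89294653 and chr4:89306299-89311039, GRCm38) and are known as genes of culture arrest and senescence. Cdkn2a encodes the Ink4 protein p16 and, in another reading frame, the p53 regulator Arf, and the gene-level values do not tell these products apart. Its level was 39.2, 65.5 and 41.9 FPKM in ASTs against 9.53, 8.54 and 6.21 FPKM in A-iSCs, a fall of 2.44 (SE 0.23, limma adjusted p = 0.000123). Cdkn2b, which encodes p15, was at 28.7, 29.0 and 27.3 FPKM in ASTs against 8.75, 9.20 and 11.4 FPKM in A-iSCs, a fall of 1.45 (SE 0.13, limma adjusted p = 8.06e-05).

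Both genes were close to absent in the cells taken from the brain. Cdkn2a was at 0.197, 0.0532 and 0.155 FPKM in P56-NPCs and 0.336, 0.0586 and 0.279 FPKM in P0-NPCs. Cdkn2b was at 0.497, 0.583 and 0.830 FPKM in P56-NPCs and 0.818, 0.544 and 0.705 FPKM in P0-NPCs. The values rest on few reads. Cdkn2a had 1 to 4 fragments per library in P56-NPCs and 2 to 9 in P0-NPCs, against 195 to 238 in A-iSCs and 770 to 1556 in ASTs. Cdkn2b had 12 to 19 fragments per library in P56-NPCs and 22 to 27 in P0-NPCs, against 245 to 425 in A-iSCs. Every A-iSC sample was therefore far above every NPC sample in both genes (limma adjusted p = 6.01e-06 for Cdkn2a and 4.39e-06 for Cdkn2b against P56-NPCs, 5.13e-06 and 2.21e-06 against P0-NPCs). No ratio is given for Cdkn2a, since its NPC values lay at or near the floor of 3 fragments.

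Cdkn2c, which encodes p18, was at 20.9, 25.3 and 21.8 FPKM in ASTs against 14.6, 17.0 and 13.8 FPKM in A-iSCs. It fell by 0.55 (limma adjusted p = 0.00894), and the call was not kept with scaling by library size alone (-0.35, limma adjusted p = 0.0536). Cdkn2d, which encodes p19, was at 25.4, 30.05 and 24.9 FPKM in ASTs against 13.6, 10.9 and 11.4 FPKM in A-iSCs and fell by 1.10 (limma adjusted p = 0.000381). Cdkn2c was at 4.91, 4.87 and 5.02 FPKM in P56-NPCs and 12.6, 10.3 and 11.0 FPKM in P0-NPCs. Cdkn2d was at 15.6, 15.5 and 13.8 FPKM in P56-NPCs and 9.25, 12.6 and 10.2 FPKM in P0-NPCs. These 2 genes made up most of the Ink4 sum in NPCs. Cdkn2d made up 72.3% of the summed Ink4 FPKM in P56-NPCs, and Cdkn2c and Cdkn2d made up 49.3% and 46.7% in P0-NPCs. In ASTs the largest share was that of Cdkn2a, 38.1%, and in A-iSCs that of Cdkn2c, 33.7%. On fragments not divided by gene length the order in ASTs turned, with 28.3% for Cdkn2a and 30.6% for Cdkn2c.

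**Figure D4:**
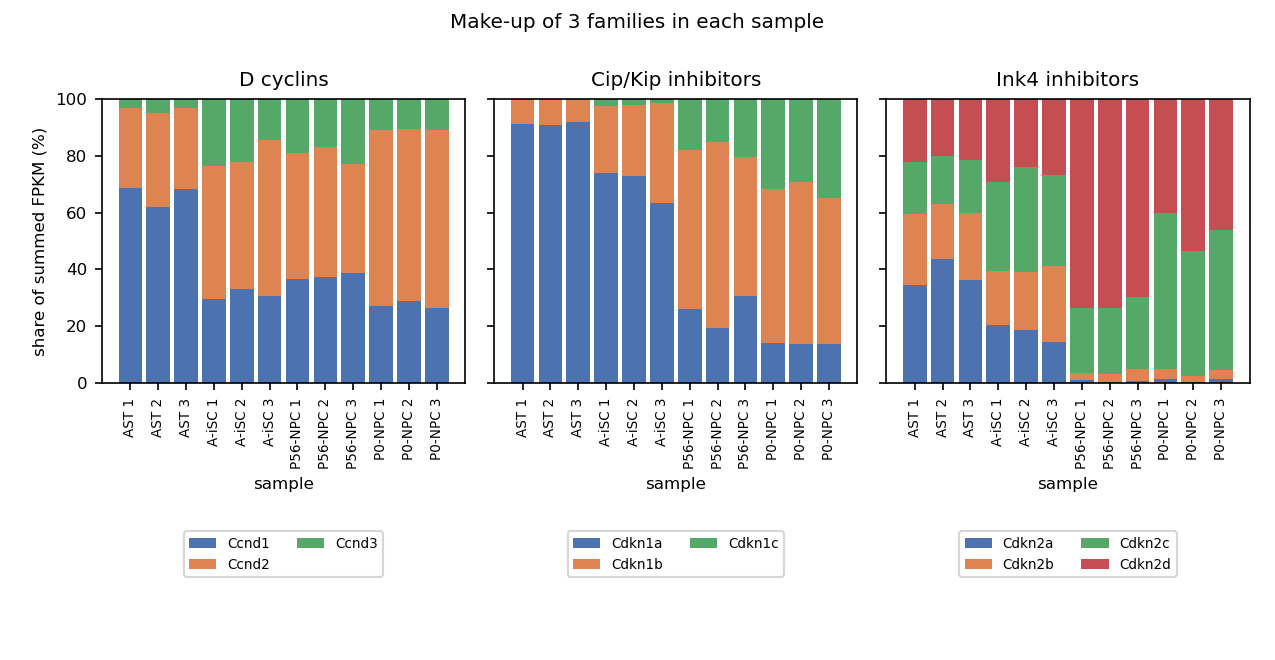
Share of each gene in the summed FPKM of the D cyclins, the Cip/Kip inhibitors and the Ink4 inhibitors (percent, stacked bars from 0 to 100) in each of the 12 samples. Ccnd1, Cdkn1a and Cdkn2a fill the largest part of their family in ASTs, with mean shares of 66.2%, 91.3% and 38.1%.

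The genes that act in transcription and CDK activation showed no common direction, with 4 higher, 2 lower and 8 not called of 14 in A-iSCs against ASTs, beside 25.2% higher and 29.6% lower over all genes tested. Cdk19, a kinase of the Mediator complex, had the largest rise of the 48 genes tested. It was at 2.80, 2.38 and 2.75 FPKM in ASTs against 13.5, 11.2 and 19.8 FPKM in A-iSCs. The rise was 2.08 on the log2 scale (SE 0.20, limma adjusted p = 0.000123), with a mean ratio of 5.61. Cdk19 was at 29.1, 27.8 and 31.0 FPKM in P56-NPCs and 16.2, 16.5 and 15.4 FPKM in P0-NPCs, so every other group lay above ASTs. Its close relative Cdk8, which occupies the same place in Mediator, was at 4.46 to 4.67 FPKM in ASTs against 2.88 to 4.21 FPKM in A-iSCs and was not called (-0.26, 95% interval -0.58 to 0.06). Their partner, cyclin C (Ccnc), was not called either (-0.04, interval -0.40 to 0.32), with 7.68 to 8.73 FPKM in ASTs against 6.95 to 10.2 FPKM in A-iSCs.

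Ccnl2, a cyclin known from splicing speckles, was at 9.93, 10.4 and 8.56 FPKM in ASTs against 30.9, 30.6 and 13.9 FPKM in A-iSCs. The fold change was 1.22 (SE 0.29, limma adjusted p = 0.0103), and A-iSC replicate 3 lay well below the other two. Ccnl2 was at 18.1, 16.2 and 16.1 FPKM in P56-NPCs and 40.4, 44.2 and 38.4 FPKM in P0-NPCs. A-iSC replicate 3 was also lowest of its group for the related Ccnl1 (18.8, 16.3 and 7.16 FPKM), for Cdk9 (28.8, 26.6 and 14.9 FPKM) and for Ccnt2 (6.15, 6.35 and 3.76 FPKM). Ccnl1 and Cdk9, the kinase of P-TEFb, were not called in the main fit (0.79 with limma adjusted p = 0.0772, and 0.20 with 0.518). Without A-iSC replicate 3 both were higher in A-iSCs, with fold changes of 1.18 (limma adjusted p = 0.00101) and 0.48 (limma adjusted p = 0.0166). With all samples kept, Ccnl1 was also called with all 4 groups in the model (limma adjusted p = 0.0196). The same held for the replicate block (limma adjusted p = 0.0119) and scaling by library size alone (limma adjusted p = 0.0356). Ccnt2, a cyclin partner of Cdk9, rose by 0.82 (limma adjusted p = 0.00626), while its relative Ccnt1, at 3.11 to 3.94 and 3.64 to 4.51 FPKM, was not called (0.12, interval -0.17 to 0.42).

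Cdk7, the kinase that activates other CDKs and phosphorylates RNA polymerase II, was at 13.05 FPKM in each AST sample and 5.84 to 7.96 FPKM in A-iSCs and fell by 0.85 (limma adjusted p = 0.00108). Its partner cyclin H (Ccnh), at 13.5 to 18.2 and 12.3 to 14.8 FPKM, was not called (-0.16, interval -0.50 to 0.17). Cdk10 rose by 0.67, from 2.49 to 3.37 FPKM in ASTs to 3.74 to 6.47 FPKM in A-iSCs (limma adjusted p = 0.0214). Ccnk, a cyclin of transcription elongation, fell by 0.32, from 13.6 to 15.5 FPKM to 11.1 to 11.72 FPKM (limma adjusted p = 0.0311). Neither call was stable. That of Cdk10 was lost without A-iSC replicate 1 or 2 or AST replicate 2 or 3 (limma adjusted p = 0.0530 to 0.0762), and that of Ccnk without A-iSC replicate 1 or 2 or AST replicate 1 or 3 (limma adjusted p = 0.0698 to 0.138). The fold changes in these runs were 0.55 to 0.69 for Cdk10 and -0.34 to -0.28 for Ccnk. With scaling by library size alone Ccnk was at -0.12 (limma adjusted p = 0.385), and without the filter Cdk10 was not called (limma adjusted p = 0.052). The partners of cyclin K, Cdk12 (1.93 to 2.98 FPKM in A-iSCs) and Cdk13 (4.11 to 4.79 FPKM), were not called, with intervals of -0.49 to 0.31 and -0.25 to 0.31.

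In the group of Cdk5, Cdk20, the Pctaire and Pftaire kinases and cyclin Y, 1 gene (Cdk20) was higher and 3 were lower of 7 tested. The shares over all genes are those given above, 25.2% and 29.6%. Cdk18, a Pctaire kinase, was at 8.56, 9.07 and 8.57 FPKM in ASTs against 3.97, 3.13 and 2.60 FPKM in A-iSCs and fell by 1.21 (SE 0.14, limma adjusted p = 0.00031). In P56-NPCs it was at 9.96, 9.81 and 10.5 FPKM, and in P0-NPCs at 0.0642, 0.130 and 0.107 FPKM, from 7 to 18 fragments per library, the widest gap between the NPC groups of the 45 genes tested (3.33 on the log2 scale, limma adjusted p = 3.62e-08). Cdk16, the founding Pctaire kinase, fell by 0.56 from 32.6 to 33.5 FPKM to 21.3 to 23.5 FPKM (limma adjusted p = 0.00306). Cdk14 fell by 0.53, from 2.71 to 3.69 FPKM to 1.604 to 2.85 FPKM (limma adjusted p = 0.0439), a call that was lost without A-iSC replicate 1 or 2 or AST replicate 1 or 3, with fold changes of -0.48 to -0.43 and adjusted p-values from limma of 0.126 to 0.14. Cdk14 was not called with scaling by library size alone (-0.38, limma adjusted p = 0.139) or without the filter (limma adjusted p = 0.0988). Cdk20, a kinase linked to cilia, rose by 0.82 (limma adjusted p = 0.000461), from 0.766 to 0.888 FPKM to 2.15 to 2.33 FPKM. Cdk5, the kinase of postmitotic neurons, was at 20.3 to 24.9 FPKM in ASTs against 15.5 to 24.3 FPKM in A-iSCs and was not called (-0.06, interval -0.51 to 0.39). Cdk17 (20.4 to 24.4 and 15.3 to 20.95 FPKM) and Ccny (17.9 to 20.4 and 18.3 to 22.5 FPKM) were not called, with fold changes of -0.34 and 0.03. Without A-iSC replicate 3, Cdk17 was called lower (-0.46, limma adjusted p = 0.0124). It was also called lower with all 4 groups in the model (limma adjusted p = 0.0244) and with upper-quartile scaling (limma adjusted p = 0.0278).

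Among the remaining cyclins, Ccng1 and Ccng2 moved in opposite directions. Ccng1 encodes cyclin G1, a p53 target that acts back on Mdm2. ASTs held 284, 254 and 286 FPKM of it and A-iSCs 73.4, 65.5 and 96.7 FPKM, with 32.9, 32.5 and 32.8 FPKM in P56-NPCs and 10.2, 9.24 and 8.97 FPKM in P0-NPCs. The 4 groups did not overlap, and the fall from ASTs to A-iSCs was 1.81 (SE 0.17, limma adjusted p = 0.000135). Ccng2, a cyclin linked to cell cycle exit, was at 3.88 to 4.11 FPKM in ASTs against 7.63 to 9.33 FPKM in A-iSCs and rose by 0.91 (limma adjusted p = 0.000406). Ccni was at 46.7, 49.0 and 46.9 FPKM in ASTs against 84.7, 104 and 89.5 FPKM in A-iSCs and rose by 0.94 (SE 0.13, limma adjusted p = 0.000644). Ccni was at 109.9, 118 and 105 FPKM in P56-NPCs and 112, 112 and 144 FPKM in P0-NPCs. Ccnj (1.37 to 1.88 FPKM in A-iSCs), Ccno (0.715 to 1.45 FPKM) and Ccnq (14.9 to 18.5 FPKM) were not called. Without A-iSC replicate 3, Ccno was called higher (0.52, limma adjusted p = 0.012), from a level of 0.467 to 0.791 FPKM in ASTs. It was also called higher with all 4 groups in the model (limma adjusted p = 0.03195) and with scaling by library size alone (limma adjusted p = 0.04775).

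**Figure D5:**
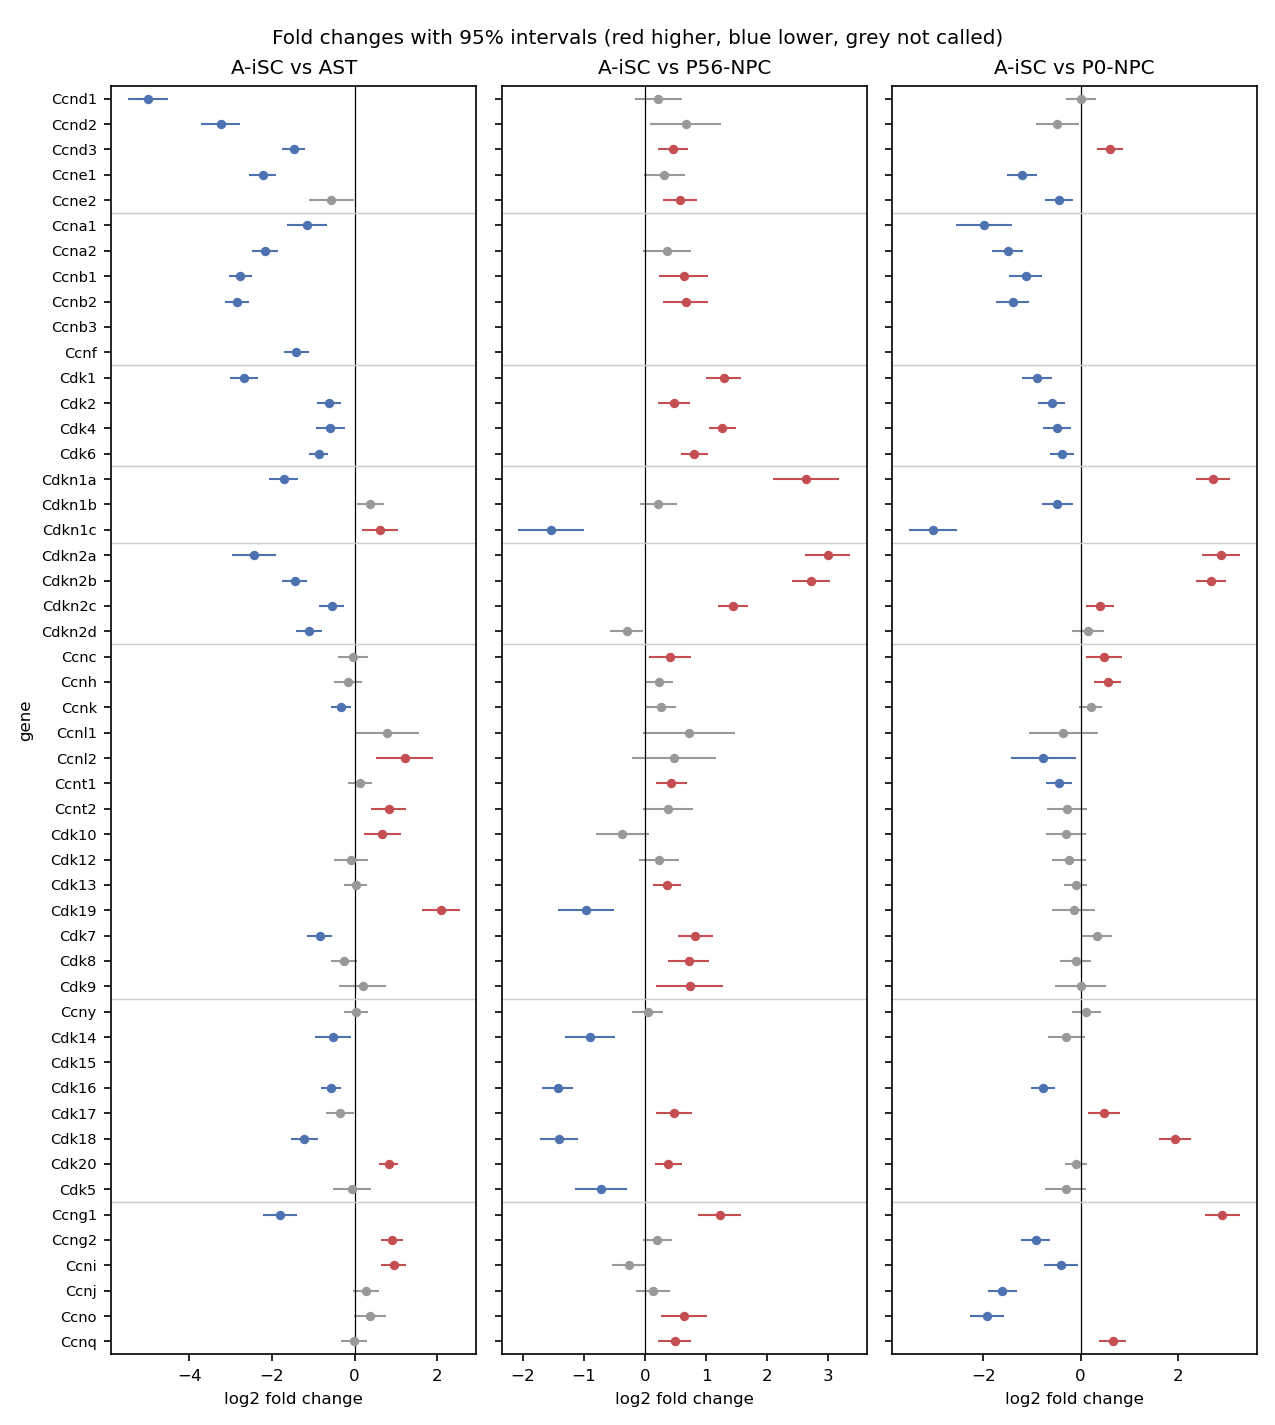
Log2 fold change on the log2(FPKM + 1) scale (points) with its 95% interval (bars) for each tested gene in A-iSCs against ASTs, P56-NPCs and P0-NPCs, grouped by role from the D and E cyclins at the top. Cdk1, Cdk2, Cdk4 and Cdk6 are lower in A-iSCs than in ASTs and P0-NPCs and higher than in P56-NPCs.

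Genes that work with these proteins were counted in the same fit, in which 29.6% of all genes tested were lower and 25.2% higher. Of 17 listed regulators of CDK activity, 15 passed the filter, Skp2 not among them, and 13 of these were lower in A-iSCs than in ASTs, among them the mitotic activator Cdc20 (-2.93), the CDK-binding subunit Cks1b (-2.43) and the inhibitory kinase Wee1 (-1.40). Cdk5r1, which encodes the activator p35 of Cdk5, was higher (1.71, limma adjusted p = 2.00e-05) although Cdk5 itself was not called. Of 18 tested genes of the Rb, E2F and MuvB machinery, 10 were lower and 2 higher. Genes that are known to drive and to repress cycle genes were both among the lower ones. These were the activators Foxm1 (-2.07), E2f1 (-1.53), Mybl2 (-1.08) and E2f3 (-0.34), the repressors E2f8 (-1.59), E2f6 (-1.04) and E2f7 (-0.86), the pocket protein Rbl1 (-0.54), the E2F partner Tfdp1 (-0.86) and the MuvB subunit Lin9 (-0.50). The 2 higher genes were the other pocket proteins, Rb1 (0.47) and Rbl2 (1.20). Of 9 tested proliferation markers, all 9 were lower, with a median log2 fold change of -1.96. Of 7 genes of the p53 axis, Mdm2 (-0.98), Btg2 (-0.65) and Sesn2 (-0.52) were lower and Gadd45a (1.03) and Sesn1 (1.13) were higher, while Trp53 (-0.56) and Bax (-0.69) were not called.

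Against P56-NPCs, the adult subependymal suspension, more genes were higher than lower in A-iSCs. Of 46 tested, 23 were higher and 6 lower in A-iSCs, beside 30.1% higher and 30.9% lower over all genes tested. With scaling by library size alone the counts were 37 and 4. Over all 14895 genes tested under this scaling, 8329 were higher and 2857 lower. All 4 cell cycle kinases were higher. Cdk1 was at 3.27 to 3.80 FPKM in A-iSCs and 0.701 to 1.14 FPKM in P56-NPCs (1.29, limma adjusted p = 9.49e-05), and Cdk4 was at 54.3 to 60.6 FPKM against 22.9 to 24.2 FPKM (1.26, limma adjusted p = 2.82e-05). Ccnb1 (0.63) and Ccnb2 (0.66) were higher, while Ccna2 (0.37, interval -0.03 to 0.76) and Ccne1 (0.32, interval -0.02 to 0.66) were not called. Ccnf and Ccna1 were below the filter. The inhibitors Cdkn1a (2.63), Cdkn2b (2.72) and Cdkn2c (1.44) were higher too, and Cdkn1c was lower (-1.54, limma adjusted p = 0.0009). The other lower genes were Cdk16 (-1.43), Cdk18 (-1.40), Cdk19 (-0.97), Cdk14 (-0.90) and Cdk5 (-0.72), of which Cdk19 and Cdk5 were not called with scaling by library size alone (-0.44 and -0.18). Oligodendrocyte markers moved with this comparison, as their sums above show. The 4 ependymal markers summed to 59.6 to 71.7 FPKM in A-iSCs and 225 to 298 in P56-NPCs, and the 6 neuronal markers to 45.0 to 57.6 and 181 to 222. The part of these markers in the comparison was not tested.

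Against P0-NPCs, the newborn hippocampal suspension, the A, B and E cyclins and the cell cycle kinases were lower in A-iSCs. Ccnd3 and several inhibitors were higher. Of 47 genes tested, 19 were lower and 11 higher in A-iSCs, beside 33.6% lower and 31.5% higher over all genes tested. Ccna2 was at 2.54 to 3.35 FPKM in A-iSCs and 8.61 to 11.1 FPKM in P0-NPCs (a mean ratio of 3.47, limma adjusted p = 4.24e-05), and Ccna1 at 0.163 to 0.351 against 2.49 to 6.20 FPKM (-1.99, limma adjusted p = 0.000226). Ccnd3 was higher in A-iSCs, with 6.86 to 8.41 against 4.38 to 5.02 FPKM (a mean ratio of 1.62, limma adjusted p = 0.00233), while Ccnd1 and Ccnd2 were not called. Ccne2 was lower by 0.45 (limma adjusted p = 0.014), a call that was lost without A-iSC replicate 2 or P0-NPC replicate 2 or 3 (limma adjusted p = 0.0508 to 0.0556). Ccnb2 (-1.39), Ccne1 (-1.21), Ccnb1 (-1.13), Cdk1 (-0.90), Cdk2 (-0.60) and Cdk4 (-0.49) were lower as well. Cdk6 was lower by 0.38 (limma adjusted p = 0.0154), but was not called without P0-NPC replicate 1 (-0.35, limma adjusted p = 0.0649) or replicate 3 (-0.35, limma adjusted p = 0.0593).

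The inhibitors split in this comparison. Cdkn1c was at 1.15 to 2.36 FPKM in A-iSCs and 18.04 to 26.9 FPKM in P0-NPCs, the most negative fold change of the 47 genes (-3.04, limma adjusted p = 1.16e-05), and Cdkn1b was lower by 0.48 (limma adjusted p = 0.0171). Cdkn1a (2.71), Cdkn2b (2.67) and Ccng1 (2.91) were higher. The call of Cdkn1b was lost without A-iSC replicate 1 or 2 or P0-NPC replicate 1 or 3 (limma adjusted p = 0.0574 to 0.0673). Ccno and Ccnj, at 6.45 to 7.46 and 6.13 to 7.66 FPKM in P0-NPCs, were lower too, with falls of 1.92 and 1.61 in A-iSCs (limma adjusted p = 2.11e-05 and 2.13e-05). Ccno is known for multiciliated cells. Markers of several cell types moved with this comparison. The neuronal markers given above were higher in P0-NPCs, as were 4 endothelial markers, which summed to 66.8 to 67.4 FPKM there against 1.13 to 1.92 in A-iSCs. The microglial and astrocyte markers were lower in P0-NPCs, at 23.4 to 31.8 and 151 to 208 FPKM, than in A-iSCs. The part of these markers in the comparison was not tested.

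The NPC groups were also set against ASTs. Of 47 genes tested, 30 were lower and 12 higher in P56-NPCs, beside 39.8% lower and 39.1% higher over all genes, and of 48 tested, 23 were lower and 15 higher in P0-NPCs, beside 40.9% and 38.1%. These comparisons share the AST samples with that of A-iSCs, so their values are given side by side only. The fibroblast and pericyte markers, high in ASTs, summed to 14.6 to 28.1 FPKM in P56-NPCs and 92.1 to 99.7 in P0-NPCs. The microglial and astrocyte markers summed to 235 to 244 and 1252 to 1335 FPKM in P56-NPCs, above ASTs, and the part of these lists was not tested. Cdk19 was higher than in ASTs by 3.06 in P56-NPCs and 2.23 in P0-NPCs, Cdkn1c by 2.15 and 3.65, and Ccni by 1.20 and 1.34. Cdkn1a was lower by 4.35 in P56-NPCs, with a fold change of -4.42 in P0-NPCs. Cdk4 differed between the NPC groups in this respect, with -1.85 in P56-NPCs (limma adjusted p = 7.56e-06) and -0.09 in P0-NPCs, where the interval of -0.43 to 0.25 held 0. Cdk2 in P0-NPCs was likewise not called (-0.01, interval -0.27 to 0.24), although Ccna2 (-0.67), Ccnb1 (-1.63) and Cdk1 (-1.77) were lower.

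The 2 NPC groups differed directly in 35 of 45 genes tested, with 27 lower and 8 higher in P56-NPCs, beside 39% lower and 39.7% higher over all genes tested. With scaling by library size alone the counts were 38 and 3. Over all 15398 genes tested under this scaling, 9428 were lower and 3438 higher. All 4 tested genes of the A and B cyclins and all 4 cell cycle kinases were lower in P56-NPCs. Cdk1 was at 0.701 to 1.14 FPKM there against 6.33 to 8.54 FPKM in P0-NPCs (-2.19, limma adjusted p = 2.89e-06), and Cdk4 was at 22.9 to 24.2 against 73.1 to 88.7 FPKM (-1.76, limma adjusted p = 1.04e-06). The higher genes were Cdk18 (3.33), Ccng1 (1.69), Cdk19 (0.83), Cdk16 (0.65), Cdk14 (0.60), Cdkn2d (0.46), Cdk5 (0.41) and Ccnh (0.33). Under scaling by library size alone, Cdk5, Cdkn2d and Ccnh turned to negative values in this comparison and Cdk14 and Cdk16 were no longer called. Of the turned values, only that of Ccnh was called (-0.25, limma adjusted p = 0.0362). Dissection site and age differed together between these groups and cannot be told apart. Marker sums also moved, at 1252 to 1335 FPKM in P56-NPCs against 151 to 208 in P0-NPCs for astrocytes. For microglia they were 235 to 244 against 23.4 to 31.8, and for ependymal cells 225 to 298 against 69.2 to 88.6. They were lower in P56-NPCs for endothelial cells (2.57 to 3.15 against 66.8 to 67.4) and neurons (181 to 222 against 748 to 901). The part of these markers was not tested.

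Some values are uncertain because genes share bases. The kit was not stated to keep strand, and 22 of the 50 genes have exons that overlap those of another gene. The overlap covered over 10% of the exon bases in 6 of them, namely 23.4% of Ccnd1 with LTO1, 19.7% of Cdk4 with Tspan31, 30.6% of Cdkn1c with Gm44732, 17.4% of Ccne2 with Ints8, 12.5% of Ccna2 with Exosc9 and 10.1% of Ccna1 with 4931419H13Rik. LTO1 was at 4.26 FPKM in ASTs against 2.52 FPKM in A-iSCs on average, far below Ccnd1. Tspan31 was at 37.7 and 30.2 FPKM and Ints8 at 6.75 and 4.83 FPKM, which is of the order of Cdk4 and above Ccne2. Exosc9 averaged 10.02 FPKM in ASTs against 5.76 FPKM in A-iSCs, below Ccna2 in ASTs but above it in A-iSCs. Processed pseudogenes of Ccnb1 and Ccnb2 in the same table reached 2.41 and 3.20 FPKM in their highest sample, so reads of these 2 genes may have been split.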

How the data were processed

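RNA of 12 samples was analysed. The deposited table holds FPKM for each sample, beside gene lengths. Its unit is not named there and was recognised by turning values back into fragments, which came out whole in 100% of cases (tolerance 0.001). The values carry a scaling between samples, whose ratio to the counted library size was 0.744 to 1.22. The submitters' processing notes name Bowtie 0.12.2 and mm8, but 54862 of 55154 shared genes, and all 50 genes here, have their GENCODE M21 position, so positions are on GRCm38. The counting tool is not given in the sources used here. DESeq2, the authors' tool, was not run, and limma-voom on the recovered fragments was the count-based alternative. limma 3.58.1 in R 4.3.3 was used with eBayes and a trend, on 2 groups at a time, with a pseudocount of 1, a filter of mean FPKM 1 in either group, and Benjamini-Hochberg adjustment over all genes tested. The test was checked on simulated data. Exact permutation tests and figures used Python 3.11.15 with scipy 1.17.1 and matplotlib 3.10.9. Promoter sequences are from RefSeq on GRCm38.p6. All genes of the search are named, with values in every sample for the cycle genes, the inhibitors and the 5 other called genes with the largest change. The genes, roles and gene lists were chosen with earlier results of these data known. Alternatives were a pseudocount of 0.1, no filter, library-size or upper-quartile scaling, all 4 groups in the model, a replicate block, limma-voom on recovered fragments and leaving out each sample. Replicate numbers were not used to pair the samples in the main fit. Every same-number correlation was over 0.1 in 0 of 6 pairs of groups. In A-iSC vs AST the correlations were -0.41, 0.35 and 0.45, so pairing there is neither shown nor excluded.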

Additional observations from a re-analysis of the deposited data

How the results depend on the processing

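Over the 6 comparisons, 206 fold changes of the cyclins, kinases and inhibitors were called. All 206 kept direction and call with a pseudocount of 0.1 and in limma-voom on recovered fragments. The call was lost for 2 with all 4 groups in the model, for 3 with upper-quartile scaling and for 10 without the filter. With scaling by library size alone it was lost for 11, and 4 more were reversed in direction. When a sample was left out it was lost 74 times (against 1161 times when it was kept). Scaling by library size alone moved the median log2 fold change of all genes from -0.06 to 0.13 (A-iSC vs AST), from -0.03 to -0.34 (P56-NPC vs AST), from -0.07 to 0.21 (P0-NPC vs AST), from 0.03 to 0.49 (A-iSC vs P56-NPC) and from 0.01 to -0.53 (P56-NPC vs P0-NPC). Under it the cyclins, kinases and inhibitors called higher numbered 37 instead of 23 in A-iSC vs P56-NPC and 3 instead of 8 in P56-NPC vs P0-NPC. Over all genes tested under it, 8329 of 14895 and 3438 of 15398 were higher in these comparisons. Scaling by library size alone reversed Cdk18 in P56-NPC vs AST (-0.12) and Cdk5 (-0.20), Cdkn2d (-0.13) and Ccnh (-0.25) in P56-NPC vs P0-NPC. Of these, only Ccnh was called in the reversed direction (limma adjusted p = 0.0362). The cause was not tested. With the replicate block, 9 genes were higher and 24 lower in A-iSC vs AST, and the paired fit lost 7 of the 206 calls. The labels tie same-numbered samples by number only, and whether they are paired is not known (r = -0.41, 0.35 and 0.45 in A-iSC vs AST). With 1 sample left out, 6 to 11 genes were higher and 22 to 25 lower in A-iSC vs AST, and the difference in the Ccnd1 share was -37.5 to -34.1 percentage points. It was -31.2 points on fragments not divided by gene length. Depth limits Cdkn2a in NPCs, Cdk18 in P0-NPCs and Cdk15, which rest on few fragments.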
